A study of Mus musculus with 24 samples.

Results

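Transcription factors that specify or mark excitatory neurons and cortical layers were followed across brain cell types. The 9 genes were Neurod1, Neurod2, Neurod6, Tbr1, Fezf2, Bcl11b, Cux2, Foxp2 and Rorb. They were taken by symbol from tables of 23871 genes made by PAPERCLIP, in which 3' ends of mRNA are recovered by crosslinking to the poly(A)-binding protein, and by Ensembl identifier from RNA-seq tables of 47069 genes. All 9 were present in both kinds of table. In cTag-PAPERCLIP a GFP-tagged poly(A)-binding protein (Ctag-PABP) is switched on by Cre, so that anti-GFP antibodies recover RNA from the cells that carry the tag.

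The groups compared each had 2 libraries. Cortex came from Camk2a-Cre; Ctag-PABP mice, from Gad2-Cre; Ctag-PABP mice and from Gfap-Cre; Ctag-PABP mice. Tissue labelled as brain came from Cx3cr1-Cre; Ctag-PABP mice that had no injection listed. Every one of these animals therefore carried the tag allele and 1 Cre driver, and the promoter of the driver set which cells were sampled: excitatory neurons for Camk2a, inhibitory neurons for Gad2, astrocytes and other cells of the Gfap lineage for Gfap, and microglia for Cx3cr1. Age, sex and strain were not given in the labels for these groups. RNA-seq came from the cortex of 3 Ptbp2-KO embryos at E18.5, with no wild-type cortex among the samples analysed here. Because the Cx3cr1 tissue was brain and the other 3 were cortex, cell type and brain region cannot be told apart in that comparison. A closing section also reads PAPERCLIP of tagged Cx3cr1 mice given PBS or LPS, and RNA-seq of microglia isolated from mice given either. For the isolated microglia the labels give 4 injection days, and an LPS dose of 1 mg per kg.

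These factors act in an ordered programme. In the developing cortex, basic helix-loop-helix proteins of the NeuroD family follow the proneural factors and carry newborn excitatory neurons through differentiation. Layer regulators then divide them: Tbr1 and Foxp2 are known from layer 6, Fezf2 and Bcl11b (also called Ctip2) from subcerebral projection neurons of layer 5, Rorb from layer 4 and Cux2 from the upper layers. Several also act elsewhere: Bcl11b and Foxp2 are known from striatal neurons too.

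The upstream sequences of 3 members are shown because these genes had the contrasting patterns described next: Neurod2 and Neurod6 were highest in the Camk2a libraries, whereas Rorb was highest in the Gfap libraries. RefSeq promoter entries (GRCm38.p6) matched 8 of the 9 genes, all but Foxp2. Each sequence is the 250 bases before an annotated start, 5' to 3' on the minus strand, on which all 3 genes lie. Capitals mark the E-box CANNTG, the letters that basic helix-loop-helix proteins such as the NeuroD factors bind. Rorb has 2 annotated starts, and both are given.
Neurod2, chr11:98329646-98329895: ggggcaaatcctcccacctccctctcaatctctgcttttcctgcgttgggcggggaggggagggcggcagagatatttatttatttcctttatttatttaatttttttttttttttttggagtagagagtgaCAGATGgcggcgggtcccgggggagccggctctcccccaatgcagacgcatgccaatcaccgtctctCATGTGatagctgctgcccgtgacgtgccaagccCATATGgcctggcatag
Neurod6, chr6:55681264-55681513: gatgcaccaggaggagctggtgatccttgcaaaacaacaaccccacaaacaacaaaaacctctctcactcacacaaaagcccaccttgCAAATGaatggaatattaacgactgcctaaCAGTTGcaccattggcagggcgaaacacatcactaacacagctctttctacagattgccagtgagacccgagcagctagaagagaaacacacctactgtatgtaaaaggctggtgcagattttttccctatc
Rorb start 1, chr19:19111197-19111446: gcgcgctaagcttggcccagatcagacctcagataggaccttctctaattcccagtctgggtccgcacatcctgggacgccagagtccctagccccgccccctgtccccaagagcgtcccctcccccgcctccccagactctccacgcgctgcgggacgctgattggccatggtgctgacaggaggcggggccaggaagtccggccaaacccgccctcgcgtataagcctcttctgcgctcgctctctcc
Rorb start 2, chr19:19001118-19001367: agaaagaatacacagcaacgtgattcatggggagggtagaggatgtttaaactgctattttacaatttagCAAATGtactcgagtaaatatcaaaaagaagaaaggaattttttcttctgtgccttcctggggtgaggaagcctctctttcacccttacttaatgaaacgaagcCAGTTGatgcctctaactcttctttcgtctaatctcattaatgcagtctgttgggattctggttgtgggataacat
The Neurod2 window held 3 E-boxes, the Neurod6 window 2, the first Rorb window 0 and the second 2. Searched on both strands, CANNTG was found in 66.2% of the 32851 promoter windows of the same length in the table. It was found in 6 of the 8 members, namely Neurod1, Neurod2, Neurod6, Tbr1, Cux2 and Rorb. A member was counted if any of its windows held the motif, and Cux2 and Rorb have 2 windows each. Shares of all windows are per window and not per gene, so the units differ. The form CAGATG, which is contained in CANNTG, was in 14.4% of all windows and in Neurod2 and Cux2. The T-box core motif GGTGTGA was in 3.33% of all windows and the ROR core motif AGGTCA in 14.02%, and neither was in a window of the 8 members.

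The libraries carried the markers their drivers call for. Total gene counts were 1833177 to 2005627 in the Camk2a libraries, 630475 to 950497 in Gad2, 800886 to 1749778 in Gfap, 133456 to 154959 in Cx3cr1 and 19446610 to 27415288 in the knockout cortex. Excitatory effector genes such as Slc17a7 took 1.10% to 1.18% of counts in Camk2a, inhibitory genes such as Gad1 1.45% to 1.83% in Gad2, astrocyte genes such as Aqp4 2.72% to 3.04% in Gfap and microglial genes such as P2ry12 5.71% to 6.52% in Cx3cr1. The Gfap libraries also held pan-neuronal genes, at 0.120% to 0.189% of counts against 1.23% to 1.29% in Camk2a, and oligodendrocyte genes at 0.135% in replicate 1 and 0.967% in replicate 2. Levels below are counts scaled to library size with trimmed-mean factors (normalised CPM), and a difference was called at a Benjamini-Hochberg adjusted p under 0.05 in edgeR's quasi-likelihood test over 9421 genes. In such bulk libraries, fewer cells of a type and less RNA per cell cannot be told apart. PAPERCLIP reads come from 3' ends and the deposited RNA-seq counts are not scaled by transcript length, so levels were compared between groups for 1 gene and not between genes.

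Against inhibitory neurons, 7 of the 9 genes were higher in the Camk2a libraries, none was lower, and Bcl11b and Cux2 did not pass. In this comparison 11.6% of all genes tested were called higher, 9.6% lower and 21.2% in either direction. The median log2 difference of the 9 genes was 5.11, or 4.40 with Fezf2, which had no count in Gad2, set to its lower bound, beside 0.03 for all genes. Against the Gfap libraries, 7 were higher in Camk2a, Rorb was lower and Fezf2 did not pass, where 60.3% of all genes were called, 29.8% higher and 30.4% lower. The median was 3.57 for the 9 genes and 0.00 for all genes. All 9 genes passed the filter on low counts, but Neurod1, Fezf2, Cux2 and Foxp2 had under 30 normalised CPM in the Camk2a libraries and few or no counts in at least 1 other group, so that they passed mainly through the groups where they were high. These counts describe genes chosen with earlier results known and carry no test of the list.

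**Figure D1:**
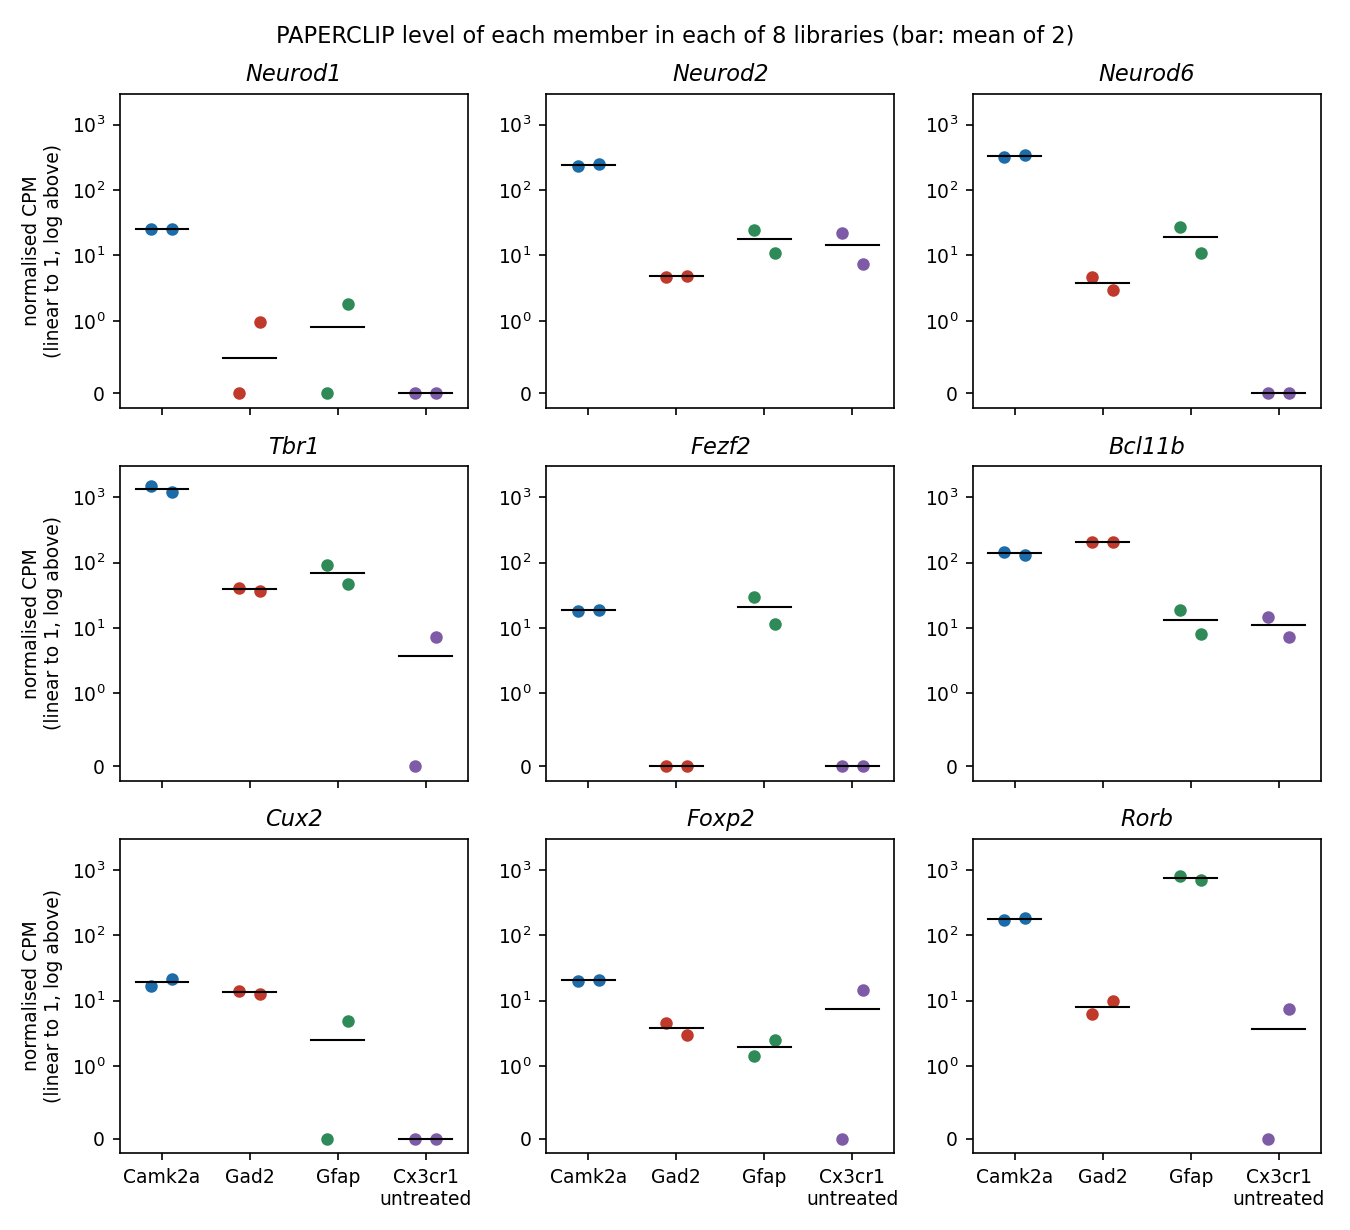
Normalised CPM of the 9 genes in each of the 8 PAPERCLIP libraries (y axis linear up to 1 and logarithmic above), with points for the 2 libraries of a group and a bar for their mean. Rorb is highest in Gfap, Bcl11b is highest in Gad2, and the Gfap points of Fezf2 lie on either side of its Camk2a points.

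The 3 NeuroD genes were far higher in excitatory than in inhibitory neurons. Spans given with each gene are on GRCm38.p6. Neurod6 (chr6:55677818-55681263), a late differentiation factor of pyramidal neurons, had 660 and 680 counts in the Camk2a libraries, 3 and 3 in Gad2, 19 and 18 in Gfap and 0 and 0 in Cx3cr1. As normalised CPM these were 319 and 340 in Camk2a, 4.61 and 2.96 in Gad2, and 27.4 and 11.0 in Gfap. The Camk2a libraries were thus far above every other library, with no overlap. In log2, Camk2a exceeded Gad2 by 6.46 (SE 0.43, adjusted p = 6.02e-09) and Gfap by 4.29 (SE 0.32, adjusted p = 3.28e-09). The difference from Gfap was 4.91 without Gfap replicate 1 and 3.56 without replicate 2. Against Cx3cr1, where 0 counts allow up to 11.0 normalised CPM, Neurod6 was at least 30.1-fold higher (adjusted p = 2.49e-07).

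Neurod2 (chr11:98325415-98329645), which supports the growth and synapses of cortical and hippocampal neurons, had 482 and 509 counts in Camk2a, 3 and 5 in Gad2, 17 and 18 in Gfap and 3 and 1 in Cx3cr1. Normalised, it stood at 233 and 255 CPM in Camk2a, 4.61 and 4.93 in Gad2, 24.5 and 11.0 in Gfap and 21.8 and 7.34 in Cx3cr1. Both Camk2a libraries lay above all 6 others, and the ranges of Gfap and Cx3cr1 overlapped. Its log2 difference was 5.63 (SE 0.39, adjusted p = 6.2e-09) from Gad2, 3.94 (SE 0.31, adjusted p = 3.09e-09) from Gfap and 4.05 (SE 0.52, adjusted p = 2.58e-06) from Cx3cr1. The difference from Gfap was 3.29 without Gfap replicate 2, and that from Cx3cr1 was 5.18 without Cx3cr1 replicate 1.

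Neurod1 (chr2:79452637-79456636), an earlier member of the same family that also acts in the cerebellum, hippocampus and endocrine pancreas, was a low signal found mainly in Camk2a. It had 52 and 50 counts there (25.11 and 25.03 normalised CPM), 0 and 1 in Gad2, 0 and 3 in Gfap and 0 and 0 in Cx3cr1. The Camk2a rate was 41.7 times the Gad2 rate, with a 95% counting interval of 7.33 to 1665, and 19.4 times the Gfap rate, with an interval of 6.46 to 95.7. Both passed the test (adjusted p = 0.00012 and 1.73e-05), and the level was at least 2.29-fold above Cx3cr1 (adjusted p = 0.0094). Intervals and floors here cover counting error only.

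Tbr1 (chr2:61802863-61814114), a T-box factor of layer 6 and of early postmitotic projection neurons, had 3110 and 2438 counts in the Camk2a libraries. It had 27 and 38 counts in Gad2, 63 and 77 in Gfap and 0 and 1 in Cx3cr1. In normalised CPM this was 1502 and 1220 in Camk2a, 41.5 and 37.5 in Gad2 and 90.9 and 47.2 in Gfap, so the Camk2a libraries did not overlap any other. The log2 difference was 5.11 (SE 0.35, adjusted p = 5.63e-09) from Gad2 and 4.36 (SE 0.33, adjusted p = 2.02e-09) from Gfap. Against Cx3cr1 the rate ratio was 373, with a counting interval of 67.0 to 14755 (adjusted p = 3.32e-09).

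Foxp2 (chr6:14901349-15441977), a forkhead factor of layer 6 that is also known from striatum and from vocal circuits, had few counts in all groups. It had 41 and 42 counts in Camk2a (19.8 and 21.0 normalised CPM), 3 and 3 in Gad2 (4.61 and 2.96), 1 and 4 in Gfap (1.44 and 2.45) and 0 and 2 in Cx3cr1. Camk2a was above Gad2 and Gfap without overlap, by 2.46 (SE 0.57, adjusted p = 0.00376) and 3.18 (SE 0.58, adjusted p = 1e-04) on the log2 scale. The call against Gad2 was lost without Gad2 replicate 2 (adjusted p = 0.122). Against Cx3cr1 the ratio was 2.79 with a counting interval of 0.749 to 23.5, and Foxp2 was the 1 member of 9 that did not pass there (adjusted p = 0.196). A RefSeq pseudogene, Gm2845, lies within the Foxp2 span and was not a row of the table.

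The 2 layer 5 regulators did not share a pattern. Bcl11b (chr12:107910403-108004145), a zinc-finger factor of subcerebral projection neurons and of striatal neurons, stood at least as high in inhibitory as in excitatory libraries. It had 305 and 263 counts in Camk2a (147 and 132 normalised CPM), 134 and 208 in Gad2 (206 and 205), 13 and 13 in Gfap (18.8 and 7.97) and 2 and 1 in Cx3cr1. Both Gad2 libraries lay above both Camk2a libraries, and the Gad2 mean was 147% of the Camk2a mean. The log2 difference of Camk2a from Gad2 was -0.56 (SE 0.23, 95% interval -1.05 to -0.07) and did not pass after adjustment (adjusted p = 0.102). It passed when either Cx3cr1 library was left out of the joint fit (adjusted p = 0.0393 without replicate 1 and 0.0493 without replicate 2). From Gfap, Bcl11b was higher in Camk2a by 3.57 (SE 0.32, adjusted p = 2.04e-08), and its rate was 12.7 times that in Cx3cr1 (counting interval 4.34 to 62.0, adjusted p = 3.42e-05). The difference from Gfap was 2.87 without Gfap replicate 2.

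Because Bcl11b is also a striatal gene, striatal markers were read beside it. A list of 13 striatal genes took 0.138% to 0.145% of counts in Gad2 and 0.0467% to 0.0568% in Camk2a. Most of the list's 872 and 1377 counts in Gad2 came from Tac1 (382 and 749) and Penk (219 and 303). In Camk2a, Tac1 held 11 and 8 and Penk 211 and 326 of 937 and 1041 counts. The higher share in Gad2 therefore rested largely on these 2 genes. Drd1, a dopamine receptor of direct-pathway striatal neurons, was lower in Camk2a than in Gad2 by a log2 difference of -1.74 (SE 0.27, adjusted p = 9.3e-05). Tac1, a neuropeptide gene of striatum and of some interneurons, had a difference of -7.12. Ppp1r1b (DARPP-32), by contrast, was higher in Camk2a by 1.22 (SE 0.33, adjusted p = 0.0109), and Drd2 had 0 counts in all 8 libraries. Of the 7 striatal genes tested, 2 were higher in Camk2a, 4 were lower and 1 did not pass. Of all genes, 11.6% were called higher and 9.6% lower in this comparison. The part of striatal RNA in the Bcl11b level was not tested.

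Fezf2 (chr14:12338992-12346803), a zinc-finger selector of subcerebral projection neurons, was present in Camk2a and Gfap and undetected in Gad2. It had 38 and 38 counts in Camk2a (18.4 and 19.0 normalised CPM), 21 and 19 in Gfap (30.3 and 11.7), and 0 in every Gad2 and Cx3cr1 library. The Gfap libraries straddled the Camk2a libraries, and their log2 difference was 0.01 (SE 0.42, 95% interval -0.87 to 0.90, adjusted p = 0.991). Without Gfap replicate 2 it was -0.71. With 0 counts in Gad2, which allow up to 1.80 normalised CPM, Fezf2 was at least 10.4-fold higher in Camk2a (adjusted p = 0.000488) and at least 11.6-fold higher in Gfap (adjusted p = 0.000216). The lower bound against Cx3cr1 was 1.71-fold (adjusted p = 0.0336), a call that was lost when either Cx3cr1 library was left out (adjusted p = 0.104 and 0.118).

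Cux2 (chr5:121857962-122050415), a homeobox factor of upper-layer neurons, was detected in both neuronal groups with no called difference. It had 35 and 43 counts in Camk2a (16.9 and 21.5 normalised CPM), 9 and 13 in Gad2 (13.8 and 12.8), 0 and 8 in Gfap (0 and 4.91) and 0 and 0 in Cx3cr1. The Camk2a values were above the Gad2 values by less than the test could resolve, with a log2 difference of 0.53 (SE 0.47, 95% interval -0.47 to 1.53, adjusted p = 0.484). Camk2a was higher than Gfap by 2.48 (SE 0.58, adjusted p = 0.00117) and at least 1.75-fold higher than Cx3cr1 (adjusted p = 0.0275). All 8 Gfap counts came from replicate 2: the difference from Gfap was 1.96 without Gfap replicate 1, and 7.21 without replicate 2, a fitted value against 0 counts that does not measure the size. The call against Cx3cr1 was lost without Camk2a replicate 2 (adjusted p = 0.0518) and without Cx3cr1 replicate 1 or 2 (adjusted p = 0.0918 and 0.102). A long non-coding RNA gene, Gm52785, overlaps the Cux2 span, and whether counting used strand is not given in the sources used here.

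Rorb (chr19:18930609-19111196), a nuclear receptor that marks layer 4 neurons, was the only one of the 9 called higher in Gfap than in Camk2a. It had 558 and 1139 counts in Gfap, 354 and 370 in Camk2a, 4 and 10 in Gad2 and 0 and 1 in Cx3cr1. Normalised, these were 805 and 699 CPM in Gfap, 171 and 185 in Camk2a and 6.15 and 9.86 in Gad2. The 3 cortical groups did not overlap, and their order was Gfap, Camk2a, Gad2. The Gfap level was 4.22-fold the Camk2a level (log2 difference of Camk2a from Gfap -2.08, SE 0.24, adjusted p = 5.21e-07). Gfap exceeded Gad2 by 93.9-fold (log2 6.47, SE 0.36, adjusted p = 8.06e-11), and Camk2a exceeded Gad2 by 4.40 on the log2 scale (SE 0.36, adjusted p = 4.64e-08). Against Cx3cr1 the Camk2a rate was 48.7 times as high (counting interval 8.72 to 1928, adjusted p = 2.00e-06).

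**Figure D2:**
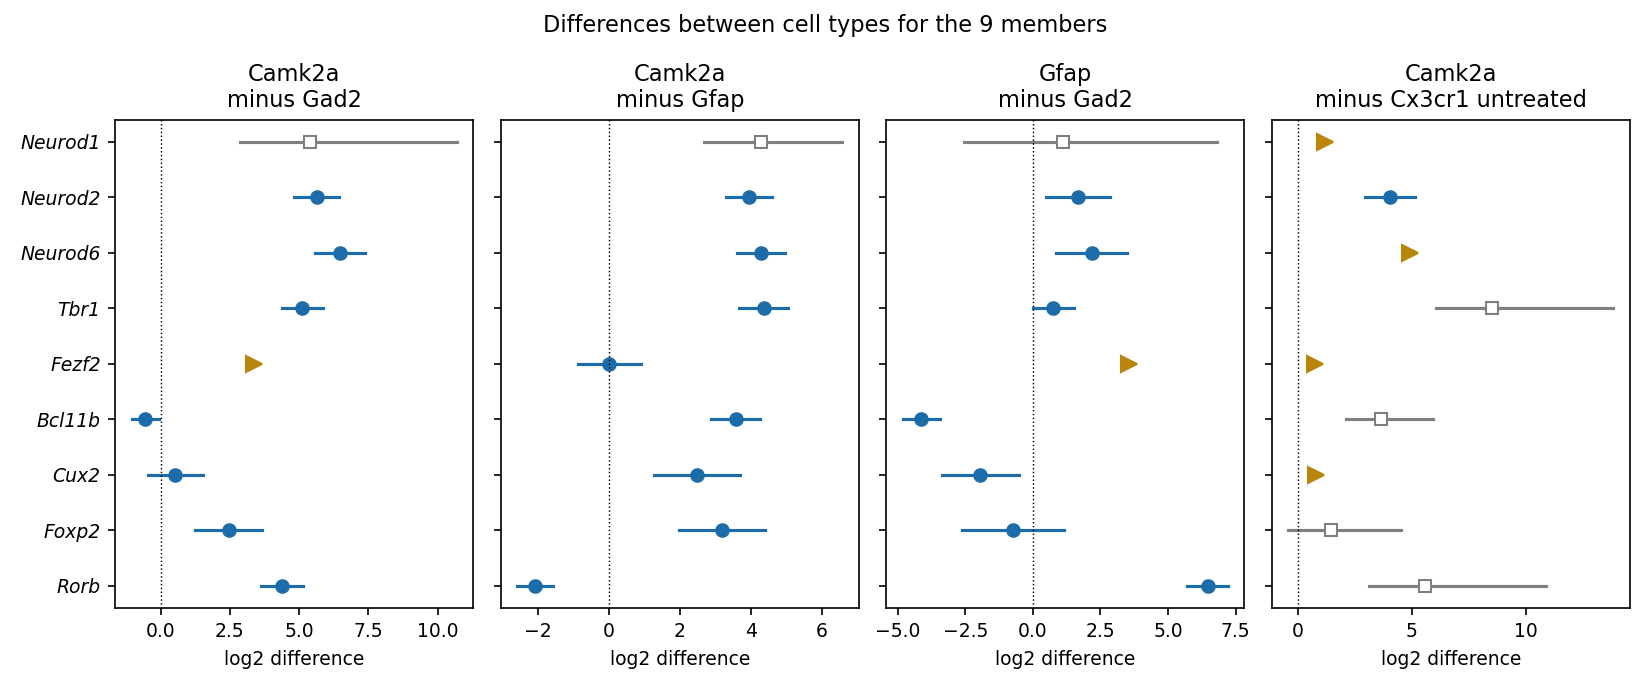
Log2 differences of the 9 genes in 4 comparisons, with 95% intervals of the fit (blue circles), count ratios with counting intervals where a group had 1 to 3 counts (open squares) and lower bounds where it had 0 (triangles). Rorb lies left of 0 for Camk2a minus Gfap at -2.08, Bcl11b lies left of 0 for Gfap minus Gad2 at -4.13, and Fezf2 sits at 0.01 for Camk2a minus Gfap.

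Between Gfap and Gad2 the 9 genes divided: 4 were higher in Gfap (Neurod2, Neurod6, Fezf2 and Rorb), 2 were lower (Bcl11b and Cux2), and Neurod1, Tbr1 and Foxp2 did not pass. Of all genes, 53.1% were called here, 27.5% higher and 25.5% lower, and 6 of 9 is close to that background. The median log2 difference was 0.96 over the 9 genes and 0.03 over all genes. Bcl11b was 15.4-fold lower in Gfap (log2 -4.13, SE 0.33, adjusted p = 4.61e-09). Neurod6 was higher in Gfap by 2.18 (SE 0.62, adjusted p = 0.00669), Neurod2 by 1.69 (SE 0.57, adjusted p = 0.0173), and Cux2 was lower by -1.94 (SE 0.68, adjusted p = 0.0225). Tbr1 had a difference of 0.75 (SE 0.36, interval -0.01 to 1.51, adjusted p = 0.0898), Foxp2 one of -0.73 (SE 0.90, interval -2.61 to 1.16, adjusted p = 0.524), and Neurod1, with 1 count in Gad2, a ratio of 2.15 (counting interval 0.173 to 113, adjusted p = 0.616).

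Several of these calls rested on single libraries. Neurod2 was no longer called without Gfap replicate 1 (adjusted p = 0.131) or without Gad2 replicate 1 or 2 (0.0826 and 0.119). Neurod6 was lost without Gfap replicate 1 (0.0612) or Gad2 replicate 2 (0.116). Cux2 was lost without Gfap replicate 1 (0.0788) or Gad2 replicate 1 or 2 (0.0979 at most), and Tbr1 was called without Gfap replicate 2 (log2 1.21, adjusted p = 0.0216). Without that library the other differences were 2.33 for Neurod2, 2.88 for Neurod6, -3.44 for Bcl11b and, against 0 counts, -6.69 for Cux2. The calls for Rorb, Bcl11b and Fezf2 held in each of these refits.

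The levels in the Gfap libraries were set beside those of general neuronal genes. As a percent of the Camk2a level, the Gfap level was 5.07% for Tbr1, 5.83% for Neurod6, 7.29% for Neurod2, 9.54% for Foxp2, 9.58% for Bcl11b and 12.8% for Cux2. The Foxp2 value rests on 1 and 4 Gfap counts and the Cux2 value on 0 and 8, so both are rough. The 9 pan-neuronal genes with more than 3 counts in both groups ranged from 2.81% to 41.7%, with a median of 8.36% (Snap25, a presynaptic SNARE protein, 11.8%), and 18 excitatory effectors from 5.59% to 58.2%, with a median of 12.4%. These 6 factors lay within the range of general neuronal genes, whereas Fezf2 at 112% and Rorb at 422% lay above the highest gene of either list. The part of neuronal RNA in the Gfap levels was not tested.

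The 2 Gfap libraries were also compared with each other, gene by gene. Replicate 1 exceeded replicate 2 by 2.22-fold for Neurod2, 2.48-fold for Neurod6, 1.92-fold for Tbr1, 2.35-fold for Bcl11b and 2.60-fold for Fezf2, but by 1.15-fold for Rorb. The corresponding ratio was 0.991 to 2.51 for pan-neuronal genes, with a median of 1.65, and 0.800 to 1.30 for 12 astrocyte genes, with a median of 1.20. For 14 excitatory effectors it was 0.896 to 3.53, with a median of 1.67. Rorb fell within the astrocyte, pan-neuronal and effector ranges alike. Fezf2, at 2.60, lay above the astrocyte range, close to the pan-neuronal top of 2.51 and within the range of the effectors. These ratios rest on few counts (21 and 19 for Fezf2, 13 and 13 for Bcl11b). Their counting error was not computed, so Fezf2 is not set apart from the pan-neuronal genes.

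In Gad2 the same scale gave 1.15% of the Camk2a level for Neurod6, 1.96% for Neurod2, 2.90% for Tbr1, 4.49% for Rorb and 18.54% for Foxp2. Cux2 stood at 69.4% and Bcl11b at 147%. Pan-neuronal genes were at 19.1% to 145% in Gad2, with a median of 105%, and excitatory effectors at 2.77% to 561%, with a median of 18.8%. Slc17a7, the vesicular glutamate transporter, was at 4.08% and Nrgn, a postsynaptic calmodulin-binding protein, at 4.14%. Neurod2, Neurod6 and Tbr1 stood below both markers on this scale. Other effectors were lower than these markers: Itpka was at 3.40%, and Rprm, at 2.77%, was close to Tbr1. In Gad2, Rprm had 2 and 2 counts, Neurod6 3 and 3 and Neurod2 3 and 5, so the order among the lowest genes is not resolved. Genes with 3 counts or fewer in Gad2 are not on this scale. These differences were not tested.

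**Figure D3:**
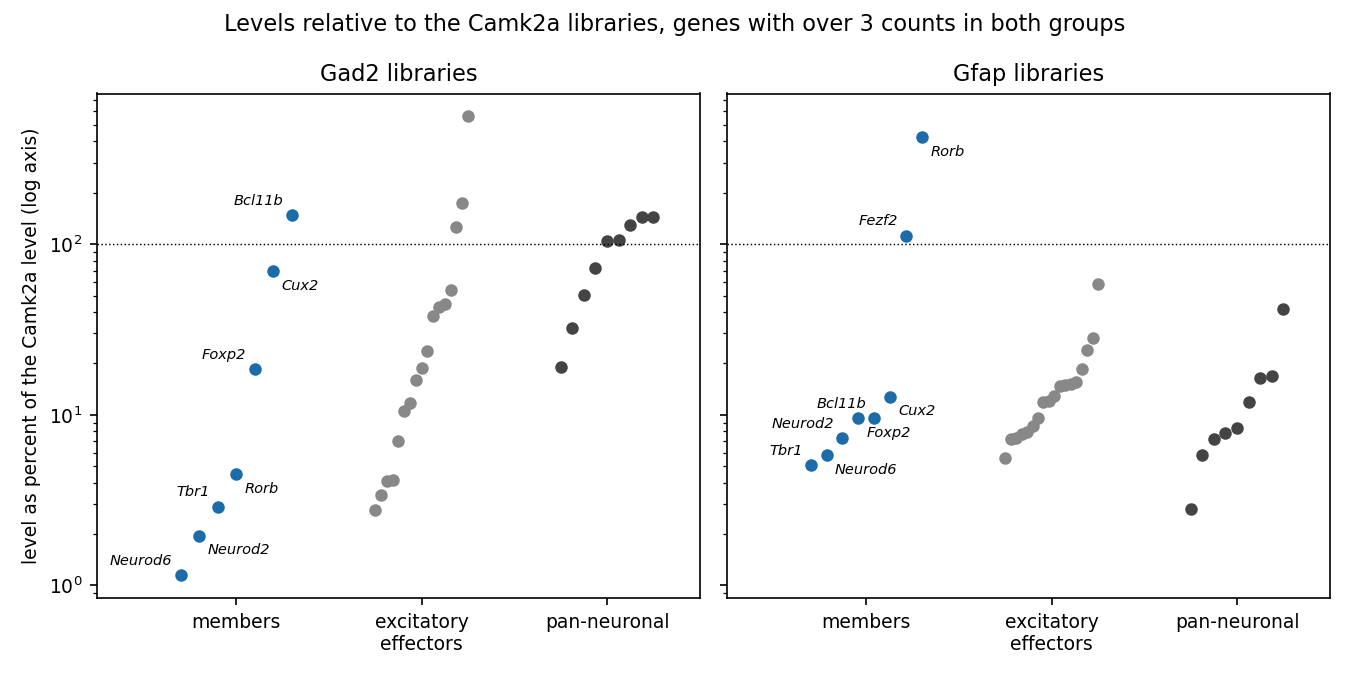
Mean level in the Gad2 (left) and Gfap (right) libraries as percent of the mean in Camk2a (log axis, dotted line at 100), for members, excitatory effector genes and pan-neuronal genes with more than 3 counts in both groups. Bcl11b at 147% is the member above the line in Gad2, and Fezf2 at 112% and Rorb at 422% are above it in Gfap.

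Against untreated microglia, 8 of the 9 genes were higher in Camk2a, and Foxp2 did not pass. Of all genes tested here, 54.3% were called, 31.3% as higher and 23% as lower, and the median over all genes was 0.43. The median of the 9 genes was 7.29 as fitted and 3.66 with genes that had no count in Cx3cr1 at their lower bounds. The 9 genes together had 5 counts of 154959 in Cx3cr1 replicate 1 and 6 of 133456 in replicate 2, so that levels there were limited by depth.

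The closest profiles in the rest of the table differed from gene to gene. Profiles were compared across the 8 libraries by the root mean square of differences in centred log2 level, among 6764 genes with at least 20 normalised CPM, and a smaller distance means a closer profile. Bcl11b was nearest to Gng3, a neuronal G-protein subunit, at 0.302, Eno2, neuronal enolase, at 0.307, and Got1, an aspartate aminotransferase, at 0.310. Neurod6 was nearest to Itpka, an inositol trisphosphate kinase of dendritic spines, at 0.588, and to Bhlhe22, another basic helix-loop-helix factor, at 0.632. Fezf2 was nearest to Kcnip3, a calcium-binding channel partner, at 0.598. Kcnip3 too was high in Camk2a (282 normalised CPM) and Gfap (314) and low in Gad2 (24.6). Rorb had the least close neighbours, Ncan, the proteoglycan neurocan, at 0.993 and Gsta4, a glutathione transferase, at 1.01. Nrgn was among the nearest 3 genes to Neurod2 (0.684), Slc8a2, a sodium-calcium exchanger, was nearest to Tbr1 (0.792), Pou3f1 was among the nearest to Neurod1 (0.700), Ank3 was nearest to Cux2 (0.580) and Atp2b1 to Foxp2 (0.657).

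Most relatives of the 9 genes in the same families had few counts in the PAPERCLIP libraries. Of 13 such genes, 5 had enough counts to test. Against Gad2, 2 were higher in Camk2a and 3 did not pass, where 11.6% of all genes were called higher and 9.6% lower. Against Gfap, 3 were higher in Camk2a, 1 lower and 1 did not pass, where the shares were 29.8% and 30.4%. Foxp1 and Foxp4, forkhead relatives of Foxp2, were higher in Camk2a than in Gad2 by 2.06 (SE 0.24, adjusted p = 2.92e-06) and 1.34 (SE 0.35, adjusted p = 0.00798). Bcl11a (0.64), Cux1 (0.29) and Rora (-0.54) did not pass. Against Gfap, Foxp1 (3.80), Bcl11a (2.93) and Foxp4 (2.92) were higher in Camk2a and Rora, the paralog of Rorb, was lower (-1.16, SE 0.31, adjusted p = 0.00314), while Cux1 (-0.02) did not pass. Neurod4 and Foxp3 had no count in the 8 libraries, and Neurog1, Neurog2, Eomes, Tbx21 and Fezf1 were among those with too few to test.

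Among 30 other transcription factors of cortical projection neurons, 29 were tested. Against Gad2, 21 were higher in Camk2a, 2 were lower and 6 did not pass, with a median log2 difference of 1.71. Zbtb18, a zinc-finger repressor of cortical neuron development, was higher by 3.33 (SE 0.27, adjusted p = 3.25e-08), and Bcl6 and Scrt1 were lower by -1.26 (SE 0.33) and -1.21 (SE 0.39). Against Gfap, 13 were higher in Camk2a, 11 lower and 5 did not pass, with a median of 0.49. There Mef2c (3.33) was higher, and Emx2 (-4.67) and Lhx2 (-3.63), regulators of dorsal telencephalic progenitors, were lower. Between Gfap and Gad2, 19 were higher in Gfap, 4 lower and 6 did not pass. Emx2 was higher there by 8.38 and Lhx2 by 7.36, and Mef2c (-2.70) and Satb1 (-2.18) were lower. Of all genes tested, 11.6% were called higher and 9.6% lower in Camk2a against Gad2, and 29.8% and 30.4% against Gfap. Between Gfap and Gad2 the shares were 27.5% higher and 25.5% lower in Gfap.

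**Figure D4:**
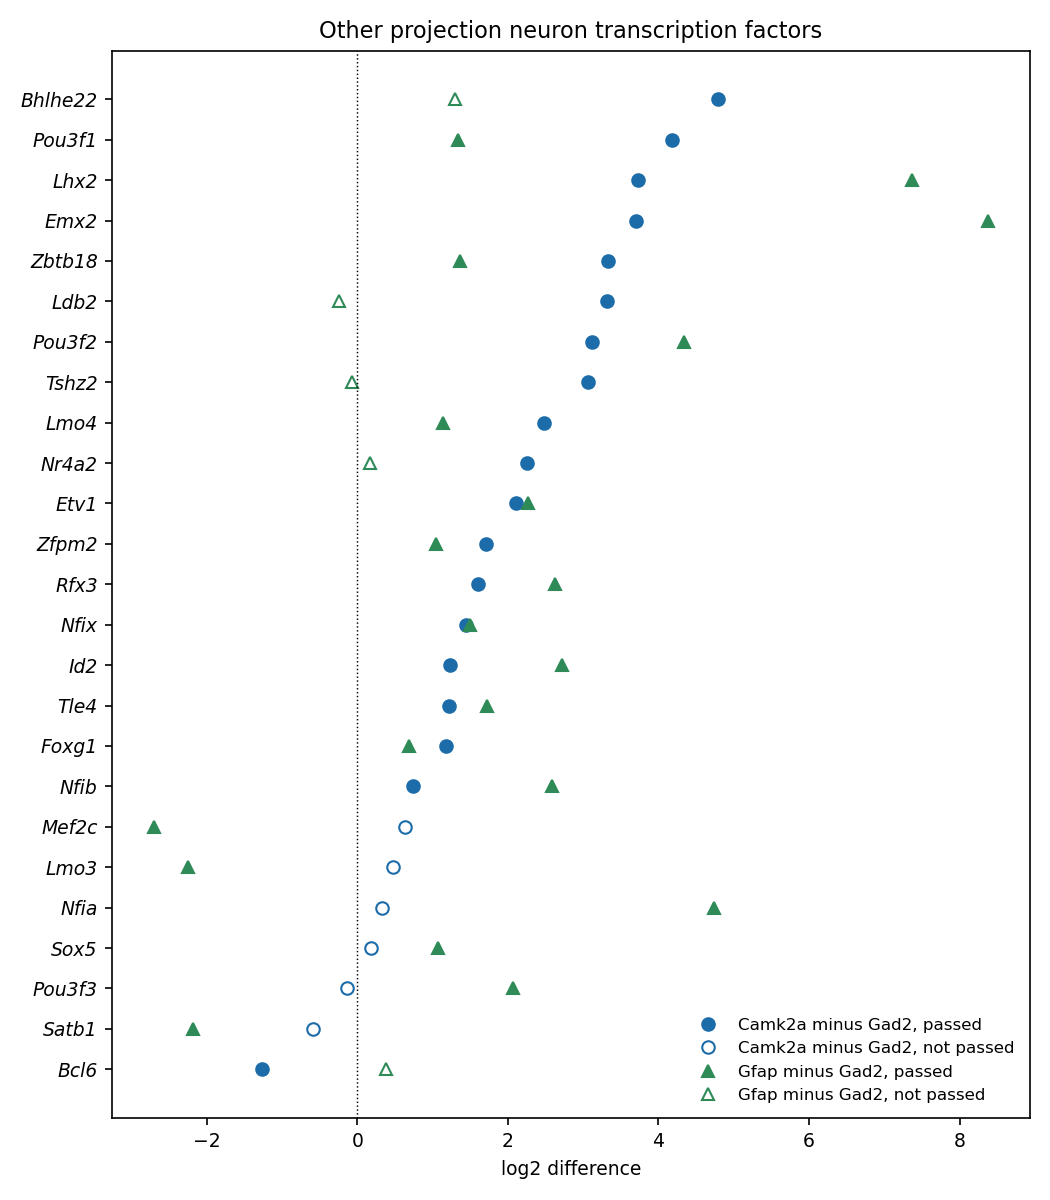
Log2 differences of 25 other projection neuron transcription factors for Camk2a minus Gad2 (circles) and Gfap minus Gad2 (triangles), filled where the adjusted p was under 0.05. Emx1, Otx1 and Scrt1 are left out because they had 3 counts or fewer in a group, and both comparisons share the Gad2 libraries. Emx2 (8.38) and Lhx2 (7.36) are far to the right in Gfap, and Zbtb18 lies at 3.33 for Camk2a.

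All 9 genes were detected in the knockout embryonic cortex. Ptbp2 encodes a neuronal splicing repressor, and its own counts were 997, 781 and 511 (36.7, 28.5 and 26.3 CPM). A whole-gene count does not check the deletion, since which exons were removed is not given in the sources used here. Levels in this tissue are plain CPM of all gene counts and are a description of 1 genotype with no control.

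Among the NeuroD genes, Neurod6 stood at 309, 301 and 414 CPM in replicates 1, 2 and 3 (341 ± 62.8, SD, n = 3). Neurod2 stood at 120, 118 and 131 CPM (123 ± 6.87, SD, n = 3) and Neurod1 at 17.0, 17.5 and 14.6 CPM (16.4 ± 1.59, SD, n = 3). Replicate 3 was the highest library for Neurod6 and Neurod2 and the lowest for Neurod1. Tbr1 was nearly level at 76.2, 79.8 and 77.8 CPM (77.9 ± 1.78, SD, n = 3), as was Foxp2 at 120, 117 and 116 CPM (118 ± 2.40, SD, n = 3). Cux2 stood at 76.0, 71.6 and 73.5 CPM (73.7 ± 2.17, SD, n = 3). These 3 genes varied little between libraries.

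Bcl11b stood at 189, 188 and 121 CPM (166 ± 39.2, SD, n = 3), so that replicate 3 was set apart from the others. Fezf2, the other layer 5 regulator, stood at 21.9, 22.5 and 17.9 CPM (20.8 ± 2.51, SD, n = 3), and Rorb at 87.6, 87.8 and 110 CPM (94.98 ± 12.6, SD, n = 3). In replicate 3, inhibitory genes took 0.0485% of counts against 0.0787% and 0.0765% in replicates 1 and 2, and striatal genes 0.0300% against 0.0363% and 0.0343%. Some lists of other cell types were lower there too, astrocyte genes at 0.0558% against 0.0738% and 0.0811% and cerebellar granule genes at 0.0103% against 0.0166% and 0.0147%. Other lists moved little. Excitatory effectors took 0.0584% against 0.0571% and 0.0600%, and pan-neuronal genes 0.445% against 0.465% and 0.481%. Progenitor and newborn neuron genes took 0.522% against 0.537% and 0.534%, and microglial genes 0.0110% against 0.0111% and 0.0117%. The other projection neuron factors were higher, at 0.583% against at most 0.523% in replicates 1 and 2. That library had counts for 37123 genes, against 29970 and 30850 in replicates 1 and 2, from the lowest total of the 3. Over all genes, replicate 3 differed from the other two by a chi-square per degree of freedom of 75.5 and 76.9, against 6.67 between replicates 1 and 2. The part of these differences in the Bcl11b level was not tested.

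**Figure D5:**
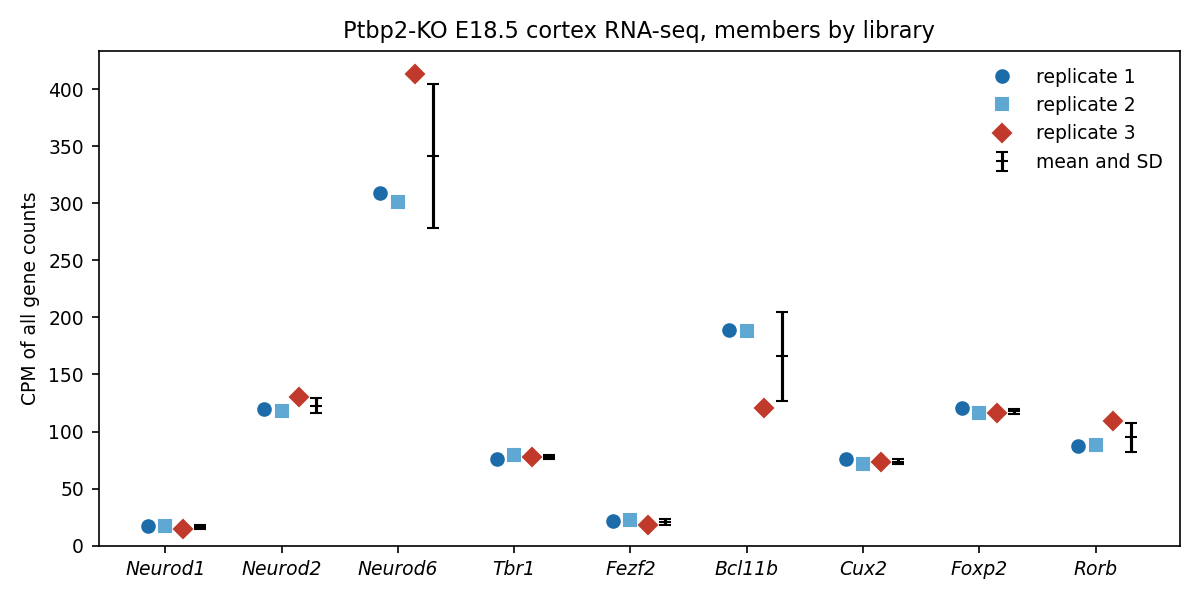
CPM of the 9 genes in the 3 RNA-seq libraries of Ptbp2-KO cortex at E18.5, with the mean and SD beside them. Replicate 3 is the lowest point for Bcl11b (121 CPM) and the highest for Neurod6 (414 CPM) and Rorb (110 CPM), and levels should be read across libraries within a gene.

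Relatives that act before the NeuroD genes were also present in this embryonic tissue. Eomes (Tbr2), the T-box factor of intermediate progenitors, was at 14.7 to 23.1 CPM, and Neurog2, the proneural factor, at 7.08 to 8.43 CPM, while Neurog1 had 2 counts in all. Foxp1 was at 193 to 211 CPM and Bcl11a at 182 to 209 CPM. Because the assays, the ages and the genotypes differ together, no level was compared between this tissue and the PAPERCLIP groups.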

How the data were processed

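The 8 PAPERCLIP libraries of the 4 groups and the 3 knockout cortex RNA-seq libraries were analysed as the authors deposited them, as whole-number counts per gene. Per the submitters' processing notes, PAPERCLIP used cutadapt and Novoalign on mm10 and RNA-seq used STAR, and versions are not stated. For barcode collapsing, gene assignment and strand, the sources used here give nothing. Per the labels' protocols, knockout RNA was depleted of ribosomal RNA and its 3 libraries are biological replicates. For the other groups the spread behind the p-values is that of libraries and may be partly technical.

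One edgeR 4.0.16 quasi-likelihood fit (R 4.3.3) covered the 8 libraries, after filterByExpr and TMM scaling. P-values were adjusted by Benjamini-Hochberg over 9421 genes in each of 4 contrasts, with a threshold of 0.05. DESeq2 1.42.0, other scalings, filters, sample sets, a replicate block, thinning and leaving out each library were alternatives. A group with 0 counts was set to 3 counts over the group to give a bound. Ratios with 1 to 3 counts have exact 95% counting intervals. Knockout levels were CPM of all gene counts with no test. The scripts were tested on simulated data. Same-numbered libraries did not deviate together. In the 4 PAPERCLIP groups and the knockout cortex no replicate pair was a duplicate (chi-square per degree of freedom at least 2.70). Among the microglial groups of the closing section that value was at least 2.10. Members, gene lists and rules were chosen with earlier results of these data known. The text names the 9 genes and the first 2 genes by adjusted p in each direction of the lists read beside them. It also names 1 or more of the 3 nearest profiles of a gene. For Neurod1 and Neurod2 the first of these is not named. Slc17a7, Nrgn, Snap25, Drd2, Kcnip3, Penk, Rprm and Itpka were given values after these had been seen. A few genes of these lists count in the totals but are not reported here by name.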

Additional observations from a re-analysis of the deposited data

Results flagged for a closer look

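Outside the comparisons above, 3 of the 9 genes had more than 3 counts in every library of another group. In brain of Cx3cr1-Cre; Ctag-PABP mice given PBS, Tbr1 had 36 counts over 3 libraries (22.5 to 68.1 CPM). In those given LPS it had 35 counts (10.6 to 17.7 CPM), and Bcl11b had 18 (3.84 to 9.43 CPM). PBS replicate 3 held 53 counts of the 9 genes, against 11 and 17 in the others, and pan-neuronal genes reached 0.325% of counts in a PBS library against 0.0522% in the lowest. The part of neuronal RNA in these counts was not tested.

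In RNA-seq of isolated microglia, Cux2 had 71 counts over 3 libraries of mice given PBS (12.4 to 19.1 CPM). It had 20 counts over 3 of mice given LPS (5, 6 and 9 counts, 2.81 to 7.20 CPM). A difference between the treatments was not tested. Pan-neuronal genes took 0.00168% to 0.00206% of counts after PBS and 0.000978% to 0.00152% after LPS. The non-coding gene Gm52785 overlaps the Cux2 span, and its part in these counts was not tested.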

How the results depend on the processing

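Across the alternatives, 534 differences of tested members kept their direction and side of the threshold. Another 17 lost their call, 3 gained one and 6 changed sign. Members that an alternative left untested were not counted here, so calls lost in that way are not among the 17. The sign changes were of differences that were not called: Fezf2 between Camk2a and Gfap was -0.0873 with DESeq2, -0.00263 with the replicate block, -0.0165 with all 14 tagged brain libraries, -0.03 without Camk2a replicate 2 and -0.71 without Gfap replicate 2, and ran from -0.71 to 0.70 with 1 library left out. Neurod1 between Gfap and Gad2 was -2.49 without Gfap replicate 2 and ran from there to 3.53.

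Thinning each library to 133456 counts left 522, 2193, 2018 and 2801 genes called for Camk2a against Gad2, Camk2a against Gfap, Gfap against Gad2 and Camk2a against Cx3cr1, in place of 2001, 5677, 5002 and 5118. Members called higher were then 4, 4, 2 and 5, and members lower between Gfap and Gad2 were 1, which was also the number with DESeq2. By construction these fits hold fewer counts. In the same order, leaving out 1 library gave 1026 to 2650, 4432 to 6365, 3883 to 5678 and 4102 to 5102 genes called. Members higher were then 6 to 7, 7 to 7, 2 to 5 and 6 to 8, and members lower 0 to 1, 1 to 1, 1 to 2 and 0 to 0. A lone remaining library was assumed to vary like the other groups.

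Same-numbered libraries shared only a number (correlation of deviations 0.00357 to 0.0663 over 6 pairs of groups). With the replicate block 2101, 5687, 5029 and 5103 genes were called. DESeq2 did not call Cux2 between Gfap and Gad2 (adjusted p = 0.0763) or Fezf2 between Camk2a and Cx3cr1 (0.0509). Among members still tested after thinning, Neurod2 lost its call between Gfap and Gad2 (0.0546). The cause was not tested. Scaling by library totals alone moved the median of all genes to 0.23 for Camk2a minus Gfap and to -0.14 for Gfap minus Gad2, and every direction called for the 9 genes held. The knockout levels per kilobase were not run, because spliced lengths were not used here.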
